A study of Mus musculus with 6 samples.

Results

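The genes described are 9 of the 20409 features in the count table: *Fn1*, which encodes fibronectin, the laminin chain gene *Lamb3*, the 5 integrin α subunit genes *Itga2*, *Itga3*, *Itga5*, *Itga6* and *Itgav*, and the 2 integrin β subunit genes *Itgb1* and *Itgb4*. They were found by the gene symbol of their Ensembl identifier. They were chosen by the difference in *Fn1* between the same groups that are compared here. The members' differences between the groups are therefore given as a description, with no p-value. Their intervals and their sides of the threshold in each fit are description too, and are not a test of these genes. Tests are given for adhesion and matrix genes outside the 9.

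The study asked how villus epithelium changes when Smad4 is lost while β-catenin is stabilised. Villi were isolated from the duodenum, and polyadenylated RNA was sequenced as 1 library per mouse from 3 double mutant and 3 wild-type mice, with 1 male and 2 females in each group. The double mutant mice carried Smad4 fl/fl, Ctnnb exon3 fl/wt and Villin-CreERT2, whose Cre acts throughout the intestinal epithelium, and received tamoxifen on consecutive days, with villi collected a week after induction. The wild-type mice were uninjected littermates, so the mutations and the tamoxifen cannot be told apart, and all mice were on a C57BL6-enriched background; no age in numbers was given beyond matching between the groups.

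Totals ran from 19678507 to 26337318 counts per mouse, and a count of 3 lay between 0.125 and 0.163 normalized CPM (CPM, counts scaled to the library total and by TMM factors). These floors cover counting error only. *Smad4* had 120, 180 and 144 CPM in wild-type villi and 26.1, 36.8 and 32.1 CPM in double mutant villi, so the deleted gene followed the labels. The 8 epithelial markers summed to between 10521 and 10827 CPM in wild-type and between 8843 and 9779 CPM in double mutant villi. *Epcam*, an epithelial adhesion protein, had at least 1696 CPM in every mouse. *Vil1* was called lower (log2 fold change -0.85) and *Krt19* higher (1.55), and the other 6 were not called. Wild-type mouse 1 stood apart: its crypt markers summed to 40.2 CPM, against 347 and 592 CPM in the other wild-type mice and 340 to 375 CPM in the double mutant mice. Calls on the 9 genes that turn on that library are given with and without it. In the other 5 mice the sum was mostly the Paneth cell genes *Defa24* and *Lyz1* and the stem cell gene *Olfm4*, none of them called, while in wild-type mouse 1 these had 1.37, 2.50 and 5.17 CPM. At an adjusted p under 0.05, 19.7% of all genes tested were called higher and 17.0% lower. Of the 9 crypt markers, 4 rose in double mutant villi: the stem cell markers *Lgr5* (log2 fold change 2.19) and *Smoc2* (1.33) and the cell cycle genes *Mki67* (1.71) and *Top2a* (1.76). The part of these cells in the differences below was not tested.

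Integrins are receptors of an α and a β chain that hold cells to the extracellular matrix and signal from it. The β1 chain pairs with many α chains, α5β1 and the αv integrins bind fibronectin, α2β1 binds collagens and laminins, and α3β1 and α6β4 bind laminins. In gut epithelium the α6β4 integrin anchors cells to the basement membrane, and laminin-332, which holds the chains encoded by *Lama3* and *Lamb3*, is among its ligands. Fibronectin is a large matrix glycoprotein that cells assemble into fibrils, and integrins recognise an arginine-glycine-aspartate site in it.

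The coding bases for that site are shown because *Fn1* had the widest difference of the 9 genes, and they lie in coding exons of *Fn1* on chromosome 1 of mm9, minus strand. In transcript Fn1-201 the first, in exon 30 of 46, was shown from chr1:71653293-71653355 and is followed by a serine codon, as in the classical cell-binding site. The second lies in exon 40, shown from chr1:71643990-71644052. Capitals mark the codons of arginine, glycine and aspartate, and both stretches read 5′ to 3′ on the coding strand.
Fn1, exon 30: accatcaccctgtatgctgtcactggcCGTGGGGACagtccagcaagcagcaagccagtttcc
Fn1, exon 40: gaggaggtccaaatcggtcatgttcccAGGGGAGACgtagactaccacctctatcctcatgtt

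The receptors that could meet such ligands share a short motif just inside the membrane, through which the α chain contacts the β chain. It is shown because it is the stretch that the 5 α subunits have in common, whereas their transcript levels differed widely. Capitals mark its 15 coding bases (glycine, phenylalanine, phenylalanine, lysine, arginine), read 5′ to 3′ on the coding strand from mm9, each within 1 exon.
Itga2, chr13:115626729-115626773, minus strand, exon 30 of 30: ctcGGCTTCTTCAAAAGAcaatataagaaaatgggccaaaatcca
Itga3, chr11:94907860-94907904, minus strand, exon 25 of 26: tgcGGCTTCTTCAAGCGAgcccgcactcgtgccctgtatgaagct
Itga5, chr15:103175739-103175783, minus strand, exon 30 of 30: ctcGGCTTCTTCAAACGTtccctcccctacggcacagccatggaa
Itga6, chr2:71693911-71693955, plus strand, exon 26 of 26: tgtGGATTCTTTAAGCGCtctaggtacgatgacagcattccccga
Itgav, chr2:83643397-83643441, plus strand, exon 30 of 30: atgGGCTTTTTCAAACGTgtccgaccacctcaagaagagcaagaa

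Between 10 and 14 of these 15 bases were identical in any pair of subunits, the most in *Itga5* and *Itgav* and the fewest in *Itga6* with *Itga2* or *Itgav*. Coding transcripts that began with ATG and held whole codons were searched, with no check of a stop codon, so models cut short at their end can be among them. The motif was in 2 of the 4 such transcripts of *Itga3*, in 2 of the 3 of *Itga6* and in 2 of the 3 of *Itgav*. Why the others lacked it was not tested. The deposited counts are per gene and do not separate these transcripts.

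Fibronectin transcripts were abundant in wild-type villi and almost missing in double mutant villi. *Fn1* (ENSMUSG00000026193; chr1:71632094-71699774, minus strand) had 89.1, 79.8 and 96.1 CPM in the 3 wild-type mice and 0.798, 0.464 and 0.285 CPM in the 3 double mutant mice. The raw counts behind these values were 2139, 1467 and 1901 against 17, 10 and 6, so every double mutant mouse was above the floor of 3 counts. The groups did not overlap, and the wild-type mean of 88.3 ± 8.17 CPM (SD, n = 3) stood 171-fold above the double mutant mean of 0.516 ± 0.261 CPM (SD, n = 3).

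The fitted log2 fold change of *Fn1*, double mutant minus wild-type, was -7.40 (standard error 0.272, 95% interval -8.02 to -6.78). Only 8 of the other genes among the 13346 tested had a lower one, and the median over all genes tested was 0.02. Leaving out each mouse in turn gave between -7.85 and -7.11. Its exons share 292 bases with *Apol7d* on the opposite strand, and the strand setting of the counting was not given in the sources used here; *Apol7d* had at most 0.75 CPM in any mouse.

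Fibroblasts are a usual source of fibronectin, and their markers were near 0 in both groups. Of the 14 fibroblast markers listed, 11 were in the table, and together they summed to 1.04, 2.18 and 9.76 CPM in wild-type mice, against 2.49, 2.55 and 2.94 CPM in double mutant mice. The collagen genes *Col1a1*, *Col1a2* and *Col3a1* and the receptor gene *Pdgfra* did not exceed 0.371 CPM in any mouse, and 8.14 of the 9.76 CPM in wild-type mouse 3 were *Col6a3*. The 6 smooth muscle markers summed to between 4.17 and 7.73 CPM in wild-type and between 4.22 and 13.0 CPM in double mutant mice, the highest in double mutant mouse 1, and the 4 endothelial markers in the table to between 1.33 and 2.18 against 2.88 and 3.47 CPM.

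Lists of enterocyte markers, general and of the villus tip, were read beside *Fn1*, and were chosen with earlier results of these data known. Over all genes tested, 19.7% were called higher and 17.0% lower. Of 10 general enterocyte markers, 6 fell and 1 rose (median log2 fold change -0.74), and they summed to between 48221 and 57333 CPM in wild-type mice, against 27836 to 31009 CPM in double mutant mice. Of 7 villus tip markers, 6 fell in double mutant villi, and the list summed to between 11757 and 15040 CPM in wild-type and between 4220 and 5001 CPM in double mutant mice. Most of that sum was *Apoa4*, an apolipoprotein that the general enterocyte list also holds, whose log2 fold change was -1.29, while *Ada*, which breaks down adenosine, had one of -5.29 and the nucleoside transporter gene *Slc28a2* one of -4.99. *Nt5e*, which makes adenosine at the cell surface, had 142, 108 and 137 CPM in wild-type mice, against 1.78, 1.02 and 2.14 CPM in double mutant mice (log2 fold change -6.29), whereas *Creb3l3*, a transcription factor of fat metabolism, had a log2 fold change of -0.01. The part of cell make-up in the *Fn1* difference was not tested, and in bulk villi fewer cells of a type and less RNA per cell cannot be told apart.

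**Figure D1:**
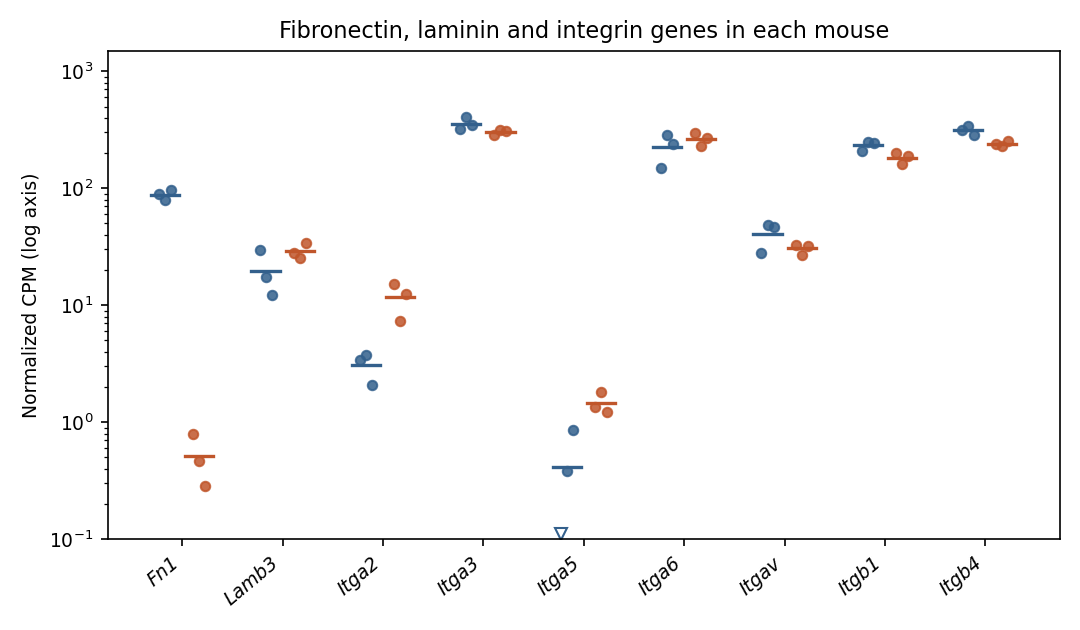
Normalized CPM of each of the 9 genes, on a log axis, in the 3 wild-type (blue) and 3 double mutant (orange) mice, with a line at the group mean; the open triangle marks a count of 0. *Fn1* sits between 79.8 and 96.1 CPM in wild-type mice and at or under 0.798 CPM in double mutant mice, while the integrin genes *Itga3*, *Itga6*, *Itgb1* and *Itgb4* stay above 149 CPM in every mouse.

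Of the 9 genes, all of which passed the filter on low counts, *Itga2* was past an adjusted p of 0.05 in the higher direction, and *Fn1* and *Itgb4* in the lower direction. Over all genes tested, 19.7% were called higher and 17.0% lower at that threshold, and since the choice of the genes used this contrast, nothing is read from their count of 3. The 3 and 3 values did not overlap for 6 of the 9 genes (*Fn1*, *Itga2*, *Itga3*, *Itga5*, *Itgb1* and *Itgb4*), beside 52.4% of all genes tested.

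The α chains of the fibronectin receptors were low per kb of exon beside those of the laminin receptors, and they shared no direction. *Itga5* (ENSMUSG00000000555; chr15:103174720-103197194, minus strand), the α chain of the main fibronectin receptor, had 0, 0.381 and 0.859 CPM in wild-type mice, against 1.36, 1.81 and 1.23 CPM in double mutant mice, from 0, 7 and 17 against 29, 39 and 26 counts. Every double mutant mouse was above every wild-type mouse, but at this depth the difference was imprecise, at 1.85 on the log2 scale (standard error 0.846, 95% interval -0.09 to 3.79). It was 1.23 without wild-type mouse 1, 3.03 without wild-type mouse 3 and 3.05 with limma-voom.

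*Itgav* (ENSMUSG00000027087; chr2:83564554-83647073, plus strand), the αv chain shared by receptors of fibronectin and vitronectin, had 27.9, 48.1 and 46.2 CPM in wild-type mice, against 32.7, 26.9 and 32.4 CPM in double mutant mice. The groups overlapped through wild-type mouse 1, which had the lowest wild-type value. The log2 fold change was -0.41 (standard error 0.207, 95% interval -0.88 to 0.06), and without wild-type mouse 1 it was -0.62 and past the threshold; without wild-type mouse 2 it was -0.27. Its exons share 634 bases with *Gm13684* on the opposite strand, which had at most 0.19 CPM.

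Of the β chains that pair with αv, *Itgb5* and *Itgb6* were read beside *Itgav*. *Itgb1* is described below, and *Itgb3* did not exceed 0.142 CPM in any mouse and was not tested. *Itgb5*, the partner in the αvβ5 vitronectin receptor, fell from 66.4 ± 7.34 to 47.6 ± 3.66 CPM (SD, n = 3 each; log2 fold change -0.48, standard error 0.124, edgeR adjusted p = 0.0169). *Itgb6*, whose αvβ6 receptor activates latent TGF-β, had 18.9 ± 6.10 CPM in wild-type mice, against 11.8 ± 1.85 CPM in double mutant mice (SD, n = 3 each; -0.68, edgeR adjusted p = 0.0661), and was past the threshold at -0.93 without wild-type mouse 1 and at -0.71 with DESeq2. The call on *Itgb5* was lost without wild-type mouse 2 (-0.47) or 3 (-0.41), without double mutant mouse 1 (-0.42) or 2 (-0.48), and with scaling by library size alone (-0.29). *Itgb8* is not analysed here.

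*Itgb1* (ENSMUSG00000025809; chr8:131209554-131257100, plus strand), the β chain common to α2, α3 and α5, was among the highest of the 9 genes per kb of exon. It had 210, 251 and 242 CPM in wild-type mice, against 201, 160 and 187 CPM in double mutant mice, so every double mutant mouse was below every wild-type mouse by a small margin. Its log2 fold change of -0.36 (standard error 0.126, 95% interval -0.64 to -0.07, not adjusted for the number of genes) was not past the threshold. It passed without wild-type mouse 1 (-0.43), without double mutant mouse 1 (-0.42), with DESeq2 and with RLE size factors (both -0.38), and was -0.16 with scaling by library size alone.

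*Itga2* (ENSMUSG00000015533; chr13:115626124-115722249, minus strand) encodes the collagen-binding α2 chain. It had 3.37, 3.75 and 2.07 CPM in wild-type mice, against 15.3, 7.37 and 12.4 CPM in double mutant mice, without overlap. The double mutant mean of 11.7 ± 3.99 CPM was 3.81-fold the wild-type mean of 3.07 ± 0.882 CPM (SD, n = 3 each), and the log2 fold change was 1.93 (standard error 0.325, 95% interval 1.19 to 2.67). It stayed past the threshold in each of the 14 other fits, between 1.70 and 2.17.

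*Itga1*, another collagen-binding α chain that pairs with β1, rose as well, from 4.67, 4.62 and 6.01 CPM in wild-type to 10.6, 7.33 and 14.2 CPM in double mutant mice (log2 fold change 1.07, standard error 0.264, edgeR adjusted p = 0.0137). Its call was lost without wild-type mouse 2 (1.00) or double mutant mouse 3 (0.82). Of the further collagen-binding chains, *Itga10* was not called (1.18, edgeR adjusted p = 0.0906) and *Itga11* was not tested. *Itga4*, a further partner of β1 that binds fibronectin in leukocytes, had 1.18 ± 0.267 CPM in wild-type mice, against 1.11 ± 0.596 CPM in double mutant mice (SD, n = 3 each; -0.08).

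The promoter of *Itga2* is shown because it was the one gene of the 9 past the threshold in the higher direction. The RefSeq promoter table (GRCm38.p6) holds entries for 6 of the 9 genes, and the promoters of *Fn1*, *Itga6* and *Itgb4* are not analysed here. The 250 bases before the start of *Itga2* are given from chr13:114932101-114932350, minus strand, 5′ to 3′. Capitals mark CAGAC, the short SMAD-binding element, or its reverse complement GTCTG.
Itga2 promoter: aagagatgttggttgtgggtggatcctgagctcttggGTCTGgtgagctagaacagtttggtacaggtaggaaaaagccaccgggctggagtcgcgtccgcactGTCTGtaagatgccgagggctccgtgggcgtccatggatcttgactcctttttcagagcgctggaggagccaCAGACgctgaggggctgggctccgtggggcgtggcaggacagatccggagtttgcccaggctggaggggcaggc

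CAGAC was present 3 times in this window on the 2 strands, at 213, 146 and 74 bases before the start. At least 1 match was found in 42.2% of the 32851 promoters of the same length and at least 3 in 2.32%. *Itgb1* also had 3 matches, *Lamb3* had 2 and 1 in its 2 entries, *Itga3* had 0 and 1, and *Itga5* and *Itgav* had 0. The letters CTTTGAT of the TCF/LEF motif were in none of the 8 entries and in 3.21% of all promoters, and neither GTCTAGAC (0.167%) nor TGANTCA, the AP-1 motif (6.75%), was in any. GGGCGG, the GC box, was in the entries of *Itga3*, *Itga5* and *Itgb1* and in 32.7% of all promoters. These matches describe letters only.

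The laminin receptor genes were the highest of the 9 per kb of exon, and their differences were small. *Itga3* (ENSMUSG00000001507; chr11:94905788-94938115, minus strand), the α chain of α3β1, had 322, 405 and 347 CPM in wild-type mice, against 287, 316 and 308 CPM in double mutant mice. The highest double mutant value lay just under the lowest wild-type value. The log2 fold change of -0.24 (standard error 0.120, 95% interval -0.51 to 0.04) was not past the threshold, and it was -0.14 without wild-type mouse 2 and -0.045 with scaling by library size alone.

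*Itgb4* (ENSMUSG00000020758; chr11:115836023-115869726, plus strand), the β4 chain that links the basement membrane to keratin filaments, had 313, 340 and 285 CPM in wild-type mice, against 241, 228 and 253 CPM in double mutant mice. The groups did not overlap, and the double mutant mean was 0.770 of the wild-type mean. The log2 fold change was -0.38 (standard error 0.111, 95% interval -0.63 to -0.12). It lost the threshold without wild-type mouse 2 (-0.31), without double mutant mouse 1 (-0.37), 2 (-0.34) or 3 (-0.41), with the replicate number as a block (-0.37), and with scaling by library size alone (-0.18). Its exons share 537 bases with *B230344G16Rik* on the opposite strand, which had at most 1.83 CPM.

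*Itga6* (ENSMUSG00000027111; chr2:71583673-71696473, plus strand), the α chain of α6β4, was not lower together with its partner. It had 150, 286 and 239 CPM in wild-type mice, against 298, 230 and 271 CPM in double mutant mice, and the groups overlapped. The log2 fold change was 0.24 (standard error 0.223, 95% interval -0.27 to 0.76). It was 0.020 without wild-type mouse 1, which had the lowest value of the 6, and 0.45 without wild-type mouse 2.

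On the scale of CPM per kb of merged exon, which allows levels of different genes to be compared, the ratio of *Itga6* to *Itgb4* was 0.372, 0.652 and 0.653 in wild-type and 0.962, 0.781 and 0.830 in double mutant mice. Every double mutant ratio was above every wild-type ratio. The means were 0.559 ± 0.162 and 0.858 ± 0.0935 (SD, n = 3 each). The ratio of *Itga3* to *Itgb1* overlapped between the groups, at 1.09 ± 0.0641 and 1.20 ± 0.197 (SD, n = 3 each), and that of *Itga2* to *Itgb1* was 0.0128 ± 0.00393 in wild-type and 0.0608 ± 0.0148 in double mutant mice (SD, n = 3 each).

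In wild-type villi the order of the 9 genes by CPM per kb ran from *Itga3* (62.7 ± 7.47) through *Itgb1* (57.4 ± 5.32), *Itgb4* (44.6 ± 3.96), *Itga6* (24.9 ± 7.63), *Fn1* (10.6 ± 0.979), *Lamb3* (4.54 ± 2.03), *Itgav* (3.79 ± 1.04) and *Itga2* (0.728 ± 0.209) to *Itga5* (0.0944 ± 0.0984; SD, n = 3 each). Neighbours overlapped between *Itga3* and *Itgb1* and between *Lamb3* and *Itgav*. In double mutant villi *Fn1* came last, at 0.0618 ± 0.0312 CPM per kb (SD, n = 3), and the order of the other genes was the same. There the neighbours *Itgb4* and *Itga6* overlapped, at 34.3 ± 1.78 and 29.5 ± 3.80, and so did *Itgav* and *Itga2*, at 2.85 ± 0.300 and 2.77 ± 0.948 CPM per kb (SD, n = 3 each). With the length of the longest transcript in place of merged exons, *Itga6* moved up to rank 3 in wild-type mice and to rank 2 in double mutant mice, and *Itgav* passed *Lamb3* in wild-type mice only, so the order of the other genes then differed between the groups.

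**Figure D2:**
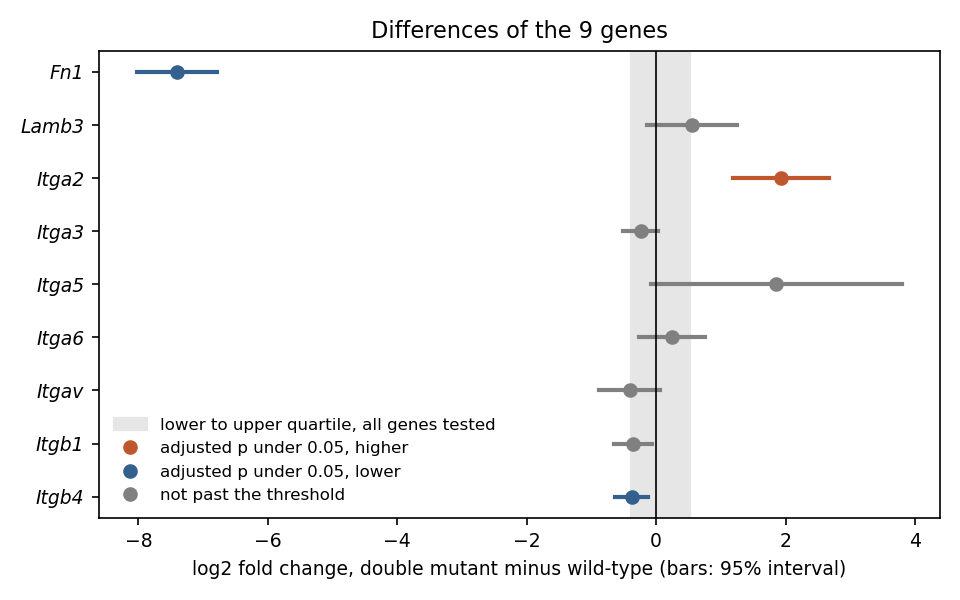
Fitted log2 fold change of the 9 genes, double mutant minus wild-type, with bars for the 95% interval and the range from the lower to the upper quartile of all genes tested shaded. *Fn1* lies at -7.40, *Itga2* at 1.93 with an interval above 0, *Itga5* at 1.85 with a wide interval across 0, and the other 6 genes between -0.41 and 0.56.

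*Lamb3* (ENSMUSG00000026639; chr1:195128151-195170072, plus strand), the β3 chain of laminin-332, had 29.6, 17.5 and 12.3 CPM in wild-type mice, against 28.1, 25.4 and 34.2 CPM in double mutant mice. Wild-type mouse 1 reached the double mutant range and made the groups overlap. The log2 fold change was 0.56 (standard error 0.300, 95% interval -0.14 to 1.26), and without wild-type mouse 1 it was 0.97 and past the threshold; without wild-type mouse 3 it was 0.30.

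The α chain that joins *Lamb3* in the same trimer was lower in every double mutant mouse than in any wild-type mouse. *Lama3*, the α3 chain, fell from 40.8, 30.7 and 31.4 CPM in wild-type to 3.10, 3.57 and 5.17 CPM in double mutant mice (log2 fold change -3.12, standard error 0.225, edgeR adjusted p = 7.52e-05), and kept the call in each of the 14 other fits, between -3.36 and -2.92. Per kb of exon the ratio of *Lama3* to *Lamb3* was 0.784 ± 0.246 for wild-type and 0.0555 ± 0.00880 for double mutant mice (SD, n = 3 each), and the groups did not overlap.

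Of the other laminin chains, 6 of 9 listed were in the table and 3 were tested, with 1 higher and 2 lower (median -1.14). *Lama5*, the α5 chain of the laminins under mature villi, fell from 17.0 ± 1.76 to 7.70 ± 1.84 CPM (SD, n = 3 each; log2 fold change -1.14, edgeR adjusted p = 0.00329). *Lamc1*, the γ1 chain found in most laminins, rose from 1.00, 3.21 and 3.49 to 10.2, 7.47 and 12.6 CPM (1.99, edgeR adjusted p = 0.00895). Both α chains that were tested were thus lower and the γ1 chain higher. *Lamb1* and *Lamb2*, the β chains that pair with γ1, did not exceed 1.01 CPM in any mouse and were not tested.

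**Figure D3:**
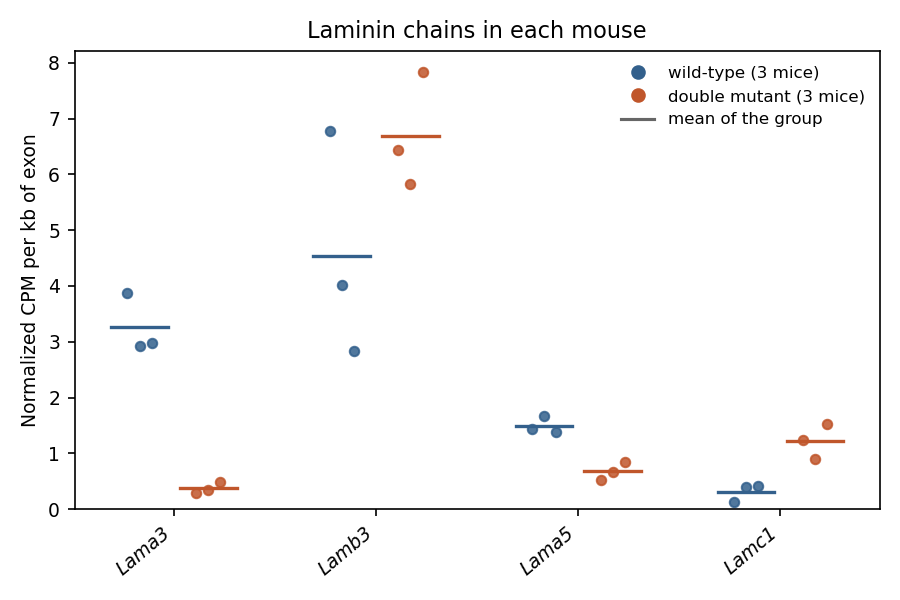
Normalized CPM per kb of exon of 4 laminin chain genes in the 3 wild-type (blue) and 3 double mutant (orange) mice, with a line at the group mean. *Lama3* drops from a mean of 3.26 to 0.375 CPM per kb, while *Lamb3* overlaps between the groups.

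Over the 7 lists of adhesion and matrix genes outside the 9, 124 of the 141 genes listed were in the table and 85 were tested. Of these, 13 rose, 25 fell and 47 did not pass the test, with a median log2 fold change of -0.31. The background for these counts and for those of each list was that, over all genes tested, 19.7% were called higher and 17.0% lower, with a median of 0.02. Scaling by library size alone moved the median of all genes by 0.19 on the log2 scale and gave 18 higher and 17 lower. It also gave 3732 higher and 1425 lower over all genes tested, instead of 2632 and 2273. The balance of the directions thus depends on the scaling, in these lists and over all genes. Without double mutant mouse 3, 8 rose.

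Of the other integrin subunits, 16 of the 20 listed were tested, with 1 higher, 3 lower and 12 not called (median -0.43). These counts changed when 1 mouse was left out: without wild-type mouse 1, 2 rose and 8 fell, and without wild-type mouse 2 or 3 or double mutant mouse 2, 1 fell. DESeq2 called 5 lower, and scaling by library size alone 3 higher. Besides *Itga1* and *Itgb5* described above, *Itgad*, an α chain of macrophages, fell from 2.80 ± 0.737 to 1.11 ± 0.341 CPM (SD, n = 3 each; log2 fold change -1.32, edgeR adjusted p = 0.0228), and *Itgb2l*, a gene related to the leukocyte β2 chain, from 15.4 ± 2.26 to 8.92 ± 0.452 CPM (SD, n = 3 each; -0.79, edgeR adjusted p = 0.00654). The call on *Itgad* was lost without wild-type mouse 2 (-1.25) or 3 (-1.18), without double mutant mouse 2 (-1.19) or 3 (-1.22), or with the replicate number as a block (-1.32). Intraepithelial T cells carry integrins of their own, and their 6 markers summed to 77.0, 146 and 131 CPM in wild-type mice, against 62.5, 73.7 and 104 CPM in double mutant mice, with *Ptprc* and *Cd8a* lower and the other 4 not called; their part in these differences was not tested.

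Of the basement membrane and hemidesmosome partners, 14 of 22 were tested, with 2 higher, 5 lower and 7 not called (median -0.39), and 3 lower without wild-type mouse 2 or with scaling by library size alone. *Plec*, the plectin that ties β4 to keratins, fell from 967 ± 159 to 462 ± 56.6 CPM (SD, n = 3 each; log2 fold change -1.07, edgeR adjusted p = 0.00132), *Dst*, which encodes the hemidesmosome protein BP230, had a log2 fold change of -0.75 (edgeR adjusted p = 0.00444), and *Tinagl1*, a basement membrane protein, one of -1.39 (edgeR adjusted p = 0.00203). *Hspg2*, the basement membrane proteoglycan perlecan, rose from 11.2, 6.80 and 7.48 to 25.1, 33.7 and 33.4 CPM (1.85, edgeR adjusted p = 0.000547). *Sdc1*, the epithelial syndecan, rose from 63.2 ± 5.03 to 96.5 ± 10.6 CPM (SD, n = 3 each; 0.61, edgeR adjusted p = 0.00570). Type IV collagen genes *Col4a1* to *Col4a6* did not exceed 0.423 CPM in any mouse.

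Of the integrin adaptors and signalling genes, 27 of 32 were tested, with 4 higher, 10 lower and 13 not called (median -0.22). Without wild-type mouse 3 or double mutant mouse 2, 2 rose, without double mutant mouse 1 or 3, 1 rose, and with scaling by library size alone 6 fell. *Actn1*, which cross-links actin at adhesions, rose from 5.87, 18.3 and 17.2 to 58.8, 68.5 and 62.6 CPM (log2 fold change 2.20, edgeR adjusted p = 0.00632), while *Tns3*, a tensin that binds β tails, fell from 116 ± 10.8 to 38.2 ± 7.21 CPM (SD, n = 3 each; -1.60, edgeR adjusted p = 0.000277). *Src*, a kinase downstream of integrins, fell from 265 ± 10.7 to 150 ± 8.37 CPM (SD, n = 3 each; -0.82, edgeR adjusted p = 0.000664). *Tln2*, a talin (1.37, edgeR adjusted p = 0.0301), and *Parva*, a parvin (1.31, edgeR adjusted p = 0.0222), were called higher, and *Tns4*, a tensin (-1.10, edgeR adjusted p = 0.0421), lower. Each of these calls was lost in some fits that left out 1 mouse and so held fewer mice.

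*Tln2* lost its call without wild-type mouse 3 (1.37) or double mutant mouse 1 (1.42), 2 (1.28) or 3 (1.40). *Parva* lost it without double mutant mouse 1 (1.29), 2 (1.30) or 3 (1.35). *Tns4* lost it without wild-type mouse 1 (-0.74) or 2 (-1.26), without double mutant mouse 1 (-0.90) or 2 (-1.01), with no filter on low counts (-1.09), with the replicate number as a block (-1.09), with sex as a covariate (-1.06) and with scaling by library size alone (-0.90).

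Of the other matrix ligands of integrins, 7 of 20 were tested, with 1 higher, 2 lower and 4 not called (median -0.31). *Tgfbi*, a secreted ligand of several integrins, fell from 662, 599 and 644 to 256, 224 and 330 CPM (log2 fold change -1.23, edgeR adjusted p = 0.000663), and *Fbln1*, a fibulin that binds fibronectin and laminin, from 683, 514 and 483 to 326, 294 and 342 CPM (-0.80, edgeR adjusted p = 0.00413). *Mfge8*, which bridges dying cells to αv integrins, rose from 6.54, 6.58 and 6.77 to 29.7, 23.8 and 25.9 CPM (2.00, edgeR adjusted p = 8.16e-05). The vitronectin gene *Vtn* did not exceed 0.139 CPM in any mouse. *Tgfbi* and *Fbln1* thus kept at least 224 CPM in every double mutant mouse.

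Of the matrix proteases, inhibitors and cross-linkers, 13 of 25 were tested, with 3 higher, 2 lower and 8 not called (median -0.12). *Mmp14*, a membrane-bound protease that cuts fibronectin, rose from 13.0, 19.9 and 24.5 to 43.0, 40.8 and 35.0 CPM (log2 fold change 1.05, edgeR adjusted p = 0.00699), and *Mmp15*, its relative, fell from 68.5 ± 14.5 to 31.5 ± 2.55 CPM (SD, n = 3 each; -1.12, edgeR adjusted p = 0.00133). *Tgm2*, which cross-links fibronectin, had 32.3, 58.1 and 83.1 CPM in wild-type mice, against 104, 174 and 129 CPM in double mutant mice (1.23, edgeR adjusted p = 0.0350). *Adam9*, a membrane-bound metalloprotease, rose from 24.2, 33.5 and 32.2 to 49.2, 44.0 and 50.7 CPM (0.68, edgeR adjusted p = 0.00803), and *Mep1b*, the meprin β of the brush border, had a log2 fold change of -0.44 (edgeR adjusted p = 0.0221).

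Leaving out 1 mouse, which also leaves fewer mice to test, ended 2 of these calls. *Tgm2* lost its call without wild-type mouse 2 (1.23), without double mutant mouse 1 (1.40), 2 (1.01) or 3 (1.27), and with no filter on low counts (1.24). *Mep1b* lost it without wild-type mouse 2 (-0.39) or 3 (-0.40), without double mutant mouse 2 (-0.41) or 3 (-0.43), with the replicate number as a block (-0.43), and with scaling by library size alone (-0.24).

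Fibronectin is a common marker of epithelial-mesenchymal transition, so genes of that transition were listed beside it. Of 13 listed, 5 were tested, with 1 higher, 1 lower and 3 not called (median 0.22). *Esrp2*, an epithelial splicing factor, rose from 22.4, 25.4 and 23.5 to 38.8, 41.3 and 39.3 CPM (log2 fold change 0.75, edgeR adjusted p = 0.00149), and *Ocln*, a tight junction protein, fell from 153 ± 17.9 to 94.7 ± 10.3 CPM (SD, n = 3 each; -0.69, edgeR adjusted p = 0.00408). The E-cadherin gene *Cdh1* had 712, 857 and 835 CPM in wild-type mice, against 949, 789 and 809 CPM in double mutant mice, and the mesenchymal genes *Cdh2*, *Snai1*, *Zeb1* and *Zeb2* did not exceed 0.653 CPM in any mouse. *Vim*, the mesenchymal filament vimentin, had 1.46, 2.28 and 2.78 CPM in wild-type mice, against 3.10, 3.76 and 2.80 CPM in double mutant mice (0.57) and was not called.

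**Figure D4:**
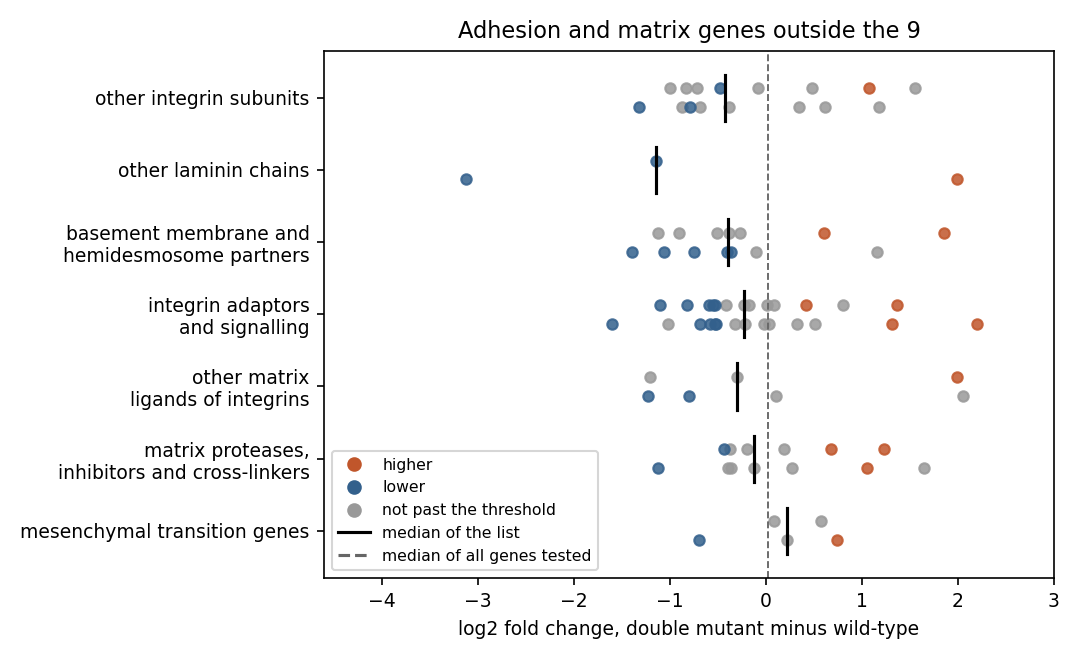
Log2 fold change, double mutant minus wild-type, of the 85 tested genes in the 7 lists, with a bar at the median of each list and a dashed line at the median of all genes tested (0.02); orange and blue mark genes past the threshold in the higher and lower direction. *Lama3* is the point furthest to the left, at -3.12, and *Actn1* the point furthest to the right, at 2.20.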

How the data were processed

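RNA of duodenal villus epithelium was sequenced in 6 mice (3 per group, from the sample labels). The authors aligned cleaned reads to mm9 (HISAT2), summed them over genes (featureCounts) and deposited the raw counts, unnormalized, 1 column per mouse. The strand setting was not given in the sources used here. Gene symbols and coordinates came from the GENCODE annotation of mm9. Features kept by filterByExpr (13346) were scaled by TMM and fitted with edgeR 4.0.16 (glmQLFit robust, glmQLFTest; R 4.3.3), with Benjamini-Hochberg adjustment over all of them and a threshold of 0.05. Totals of 19678507 to 26337318 counts set the precision. The fit was tested on simulated data with 200 changed genes. The 9 genes and the gene lists were chosen with earlier results of these data known. Outside the 9, the text names up to 3 called genes per list and direction by fold change with at least 1 CPM in the higher group, usual partners called or not, and other genes picked after their values were seen (collagens, cadherins, zinc-finger genes, further integrin subunits and markers). Alternatives were DESeq2 1.42.0, limma-voom 3.58.1, RLE factors, library size alone, 2 filters, a replicate block, sex as a covariate, and each mouse left out. Some genes of these pathways are not reported here and are outside the lists. Sequences were read from mm9 and the RefSeq promoter table.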

Additional observations from a re-analysis of the deposited data

How the results depend on the processing

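Across the 14 other fits, the 9 genes gave 126 values, of which 114 kept their direction and side of the threshold, 6 lost the threshold, 6 passed it and 0 reversed. The 30 named genes outside the 9 gave 420 values, of which 376 kept both, 38 lost the threshold, 2 passed it and 4 reversed. These 4 were *Itga4* with library size alone (0.11), without wild-type mouse 3 (0.032) and without double mutant mouse 2 (0.18) or 3 (0.050). Over the fits that left out 1 mouse, *Itga4* ran from -0.59 to 0.18. With library size alone, over all genes tested, those called lower numbered 1425 instead of 2273 and those called higher 3732 instead of 2632, and 1 of the 9 genes was called lower instead of 2; the cause was not tested. Leaving out each mouse in turn gave 1 to 2 of the 9 genes called higher and 1 to 4 lower, and 8 to 14 of the 85 other adhesion and matrix genes higher and 18 to 31 lower; over all genes tested, 1812 to 2783 genes were called higher and 1630 to 2361 lower. With the longest transcript in place of merged exons, the ratio of *Itga6* to *Itgb4* was 1.04 for wild-type and 1.59 for double mutant villi, and *Itgav* had 5.77 and 4.35 CPM per kb.

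The replicate numbers are shared by both groups, but same-numbered mice did not deviate together (correlations of 0.0224, -0.109 and 0.0123). By the labels they also share sex (number 1 is male and 2 and 3 are female in both groups), so a block on the number carries sex as well. With the replicate number as a block, 1 of the 9 genes was called lower instead of 2, since *Itgb4* (-0.37) missed the threshold, and *Fn1* had a log2 fold change of -7.42. The calls on *Itgad* (-1.32), *Mep1b* (-0.43) and *Tns4* (-1.09) were also lost under the block, which called 20 of the 85 other adhesion and matrix genes lower instead of 25, among them 3 basement membrane and hemidesmosome partners instead of 5 and 1 of the proteases, inhibitors and cross-linkers instead of 2.

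The 3 mice per group and the lowest counts limit *Itga5* most, and with 3 mice against 3 the smallest two-sided p of an exact permutation test is 0.1.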
